A study of Mus musculus with 47 samples.

Results

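The analysis covered 10 genes of the homeostatic signature of microglia, the resident macrophages of the brain: *P2ry12*, *P2ry13*, *P2ry6*, *Gpr34*, *Siglech*, *Fcrls*, *Tmem119*, *Selplg*, *Olfml3* and *Slco2b1*. They were chosen by name and matched to the Ensembl identifiers of the deposited tables through GENCODE M21, and all 10 were found among the 54281 genes of the TPM (length-normalized transcript abundance) table and the 54532 genes of the count table. RNA was sequenced from the dissected cortex of male C57BL/6J mice about 3 months old, 1 library per mouse. The mice ate control chow (23 libraries) or chow with PLX5622 at 1200 ppm (24 libraries) for 10 days and were harvested at Zeitgeber times (ZT) 2, 6, 10, 14, 18 and 22, where ZT0 is lights on. Each group of treatment and time held 4 mice, apart from control mice at ZT14, for which 3 libraries were analysed. PLX5622 is an inhibitor of the kinase CSF1R, on whose signal microglia depend for survival, and it reaches CSF1R-expressing macrophages throughout the body. Mice were housed 4 to a cage, and nothing in the labels is named as a batch. The labels do not say which mice shared a cage, so whether cages coincided with diet or time is not known. The tests treated mice as independent. Depth, taken as the summed counts of a library, ran from 16597987 to 27626161, and its median was 18314954 for control and 21476967.5 for PLX5622 libraries.

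Microglia survey the tissue with motile processes and read nucleotides, lipids and sialylated glycans through receptors on their surface. In the healthy adult brain they carry a set of surface and secreted proteins, many of which set them apart from other brain cells and from blood monocytes. Much of this set is known to fall when microglia are activated or cultured. Not every member need be restricted to microglia or fall in this way. Markers of cortical cells were present in both treatments: neuronal *Snap25* had a median of 1582 TPM in control libraries and 1596 TPM in PLX5622 libraries. Microglial *C1qa*, a complement chain, had a median of 105 TPM in control libraries and 7.61 TPM in PLX5622 libraries. In bulk tissue, fewer microglia and less RNA per microglial cell cannot be told apart.

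In control mice *P2ry12* was the most abundant of the 10 genes per unit of transcript length. Its median was 41.7 TPM, followed by *Selplg* with 26.4 TPM. *Siglech* (18.8 TPM), *Fcrls* (18.4 TPM) and *Tmem119* (18.3 TPM) formed the next level, and neighbours within this level did not differ beyond the spread between libraries. *Gpr34* had a median of 11.7 TPM and *P2ry13* one of 7.86 TPM. *Olfml3* had a median of 7.0 TPM and *Slco2b1* one of 6.89 TPM. *P2ry13* was above *Olfml3* in 18 of 23 control libraries, with a mean log2 difference smaller than its SD over libraries (0.17 and 0.20), and *Olfml3* was above *Slco2b1* in 10 of 23. *P2ry6* was lowest with 1.82 TPM, below *Slco2b1* in all 23 control libraries.

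All 10 genes were lower in PLX5622 mice. For each of the 10, every PLX5622 library lay below every control library, a separation that held for 85 of 14580 genes tested (0.583%). All 10 were called lower at an adjusted p under 0.05 (limma, Benjamini-Hochberg over all genes tested), against 376 of 14580 genes (2.58%). The size of the fall differed between genes, and *Slco2b1*, *Olfml3* and *P2ry6* kept the largest share of their control level. All 10 reached the minimum for testing, an average of 1 TPM across the 47 libraries, but *P2ry13*, *P2ry6* and *Gpr34* had a mean under 1 TPM in PLX5622 mice and passed through the control mice.

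The purinergic receptors of the set respond to nucleotides released by neurons and damaged cells. *P2ry12*, an ADP receptor that directs microglial processes toward such sites, ranged from 33.0 to 57.0 TPM (median 41.7) in control libraries and from 0.683 to 6.28 TPM (median 3.60) in PLX5622 libraries. The groups were far apart, with the lowest PLX5622 value at ZT2 replicate 3 and the highest at ZT10 replicate 4. Its log2 fold change on the log2(TPM + 1) scale was -3.44 (standard error 0.141, limma adjusted p = 3.55e-25). *P2ry13*, a related ADP receptor beside *P2ry12* on chromosome 3, ranged from 5.62 to 9.98 TPM (median 7.86) in control libraries and from 0 to 2.05 TPM (median 0.426) in PLX5622 libraries. It was listed at 0 in 2 PLX5622 libraries, ZT2 replicate 3 and ZT10 replicate 3, while ZT6 replicate 2 was well above the rest. The log2 fold change of *P2ry13* was -2.61 (standard error 0.086, adjusted p = 8.54e-29). *P2ry6*, a UDP receptor linked to phagocytosis, ranged from 1.16 to 2.54 TPM (median 1.82) in control libraries and from 0.10 to 0.879 TPM (median 0.327) in PLX5622 libraries. It was the least abundant member, resting on 4 to 24 counts per PLX5622 library, and its groups did not overlap. Its log2 fold change was -1.03 (standard error 0.061, adjusted p = 3.31e-19), and the added 1 TPM makes it smaller than the change in TPM itself.

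*Gpr34*, a receptor for lysophosphatidylserine, ranged from 8.87 to 14.1 TPM (median 11.7) in control libraries and from 0 to 2.29 TPM (median 0.988) in PLX5622 libraries. It was listed at 0 in ZT2 replicate 3 and was highest in ZT18 replicate 1. The log2 fold change of *Gpr34* was -2.71 (standard error 0.102, adjusted p = 1.22e-26). *Siglech*, a member of the sialic-acid-binding lectin family that signals through an adaptor, ranged from 13.8 to 24.3 TPM (median 18.8) in control libraries and from 0.0496 to 4.18 TPM (median 1.05) in PLX5622 libraries. Its PLX5622 values spread widely, from 2 to 84 counts, and none reached the lowest control value. Its log2 fold change was -3.15 (standard error 0.127, adjusted p = 1.80e-25). *Fcrls*, an Fc receptor-like scavenger receptor of microglia, ranged from 15.9 to 24.2 TPM (median 18.4) in control libraries and from 0.252 to 4.39 TPM (median 1.53) in PLX5622 libraries. The highest PLX5622 value of *Fcrls* was in ZT6 replicate 2 and the lowest in ZT2 replicate 3. For *Fcrls* the log2 fold change was -3.06 (standard error 0.123, adjusted p = 1.52e-25).

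*Tmem119*, a transmembrane protein used to tell microglia from infiltrating macrophages, ranged from 14.2 to 24.4 TPM (median 18.3) in control libraries and from 0.512 to 3.66 TPM (median 1.83) in PLX5622 libraries. It was lowest in ZT10 replicate 3 and highest in ZT10 replicate 4, libraries of the same time of day. For *Tmem119* the log2 fold change was -2.79 (standard error 0.104, adjusted p = 1.02e-26). *Selplg*, which encodes the P-selectin ligand PSGL-1 and lies near *Tmem119* on chromosome 5, ranged from 20.4 to 35.3 TPM (median 26.4) in control libraries and from 0.256 to 4.28 TPM (median 1.88) in PLX5622 libraries. Its PLX5622 values were again low in ZT10 replicate 3 and high in ZT18 replicate 4. The log2 fold change of *Selplg* was -3.29 (standard error 0.140, adjusted p = 1.10e-24). *Olfml3*, a secreted olfactomedin-like matrix protein, ranged from 5.05 to 8.72 TPM (median 7.0) in control libraries and from 0.681 to 2.97 TPM (median 1.62) in PLX5622 libraries, and the groups did not overlap. Its log2 fold change was -1.62 (standard error 0.071, adjusted p = 4.05e-24). *Slco2b1*, a transporter of organic anions, ranged from 5.30 to 9.16 TPM (median 6.89) in control libraries and from 2.31 to 3.71 TPM (median 2.91) in PLX5622 libraries. The groups did not overlap, and the log2 fold change of *Slco2b1* was -1.04 (standard error 0.047, adjusted p = 1.17e-23). The size of these fold changes depends on the 1 TPM added: over the alternative settings, among them 0.1 TPM added and models of the counts, the log2 fold change reached -4.14 for *P2ry13*, -4.04 for *Siglech*, -3.95 for *Selplg*, -3.79 for *Fcrls*, -3.74 for *Gpr34* and -2.16 for *P2ry6*.

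**Figure D1:**
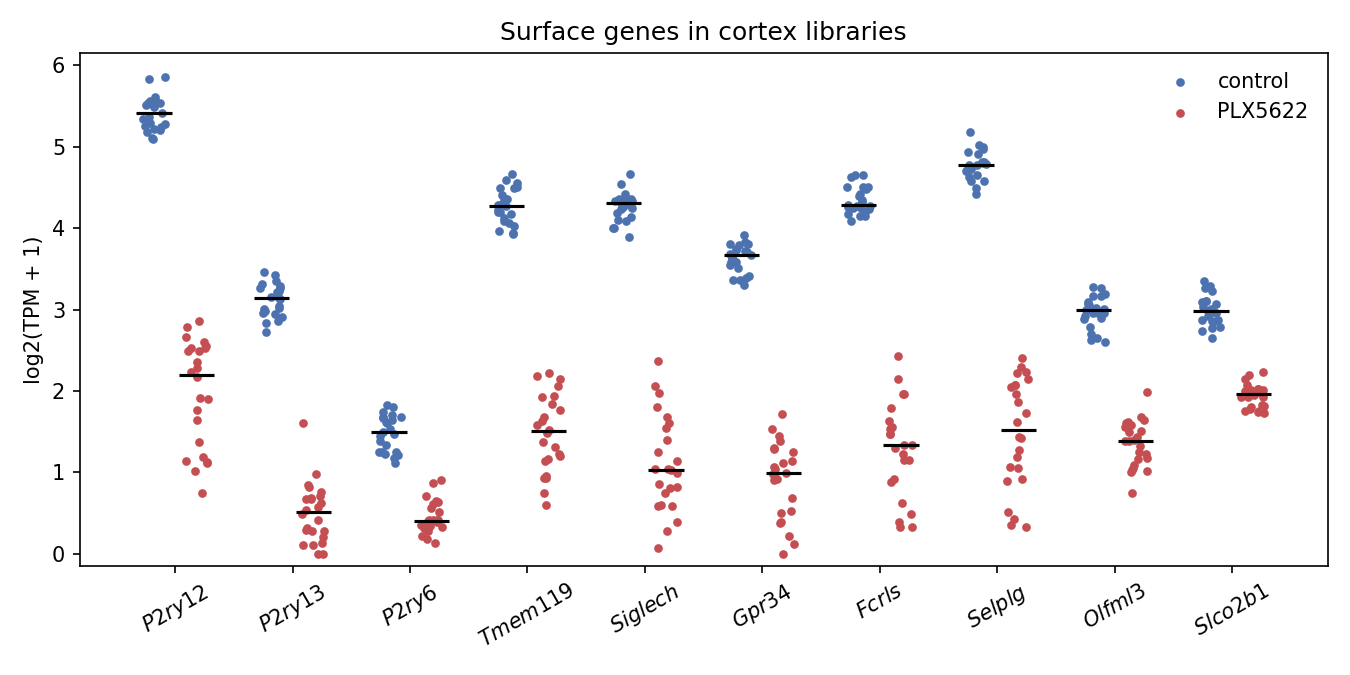
Level of each gene as log2(TPM + 1) on the vertical axis, with 1 point per library (23 control, 24 PLX5622) and a line at the median. In all 10 genes the PLX5622 points lie below the control points.

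Several of these genes overlap others on the genome, and how strand was used in counting is not given in the sources used here, so reads from a stretch transcribed on both strands, unspliced RNA of the other gene included, cannot be told apart. *P2ry12* and *P2ry13* lie within *Med12l*, a Mediator subunit gene on the opposite strand, and share 9 and 0 exon bases with it. *Med12l* had a median of 3.82 TPM in control libraries and 4.03 TPM in PLX5622 libraries (log2 fold change 0.02, standard error 0.063, adjusted p = 0.905). *Gpr34* lies within *Cask*, a synaptic scaffold gene, with 0 shared exon bases, and *Cask* had medians of 19.1 and 19.8 TPM (log2 fold change 0.13, adjusted p = 0.268). *Slco2b1* shares 471 of its 5958 exon bases with *Gm15635* and 78 with *Gm34280*, both annotated as antisense, and *Gm15635* had medians of 0.299 TPM in control libraries and 0.0850 TPM in PLX5622 libraries. *P2ry6* overlaps *Gm44545* with 0 shared exon bases.

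The residual level, a PLX5622 library's TPM as a percent of the mean of the 23 control libraries, was lowest for *P2ry13* and highest for *Slco2b1*. *P2ry13* ranged from 0% to 26.5% with a median of 5.49%, and *Siglech* from 0.271% to 22.8% with a median of 5.72%. The medians of *Selplg*, *Fcrls*, *P2ry12*, *Gpr34* and *Tmem119* were 7.10%, 7.84%, 8.55%, 8.65% and 9.92%. Between neighbours in this order of 7 genes, the mean paired log2 difference within libraries was smaller than its SD. Genes farther apart in it were not held to this measure. *P2ry6* followed with a median of 17.9% (5.5% to 48.1%), above *Tmem119* in 21 of 24 libraries. *Olfml3* had a median of 23.4% (9.88% to 43.1%) and lay above *P2ry6* in 15 of 24 libraries. *Slco2b1* stood above *Olfml3* in 23 of 24 libraries, with a median of 41.6% (33.0% to 52.9%).

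The purinergic receptors therefore did not share a residual level. *P2ry6* lay above *P2ry12* in 23 of 24 libraries, and *P2ry13* lay above *P2ry12* in 5 of 24. *Tmem119*, although it lies near *Selplg*, kept a higher share than *Selplg* in all but 3 of 24 libraries. *Slco2b1* and *Olfml3* were each above *P2ry12* in all 24. *Slco2b1* had the narrowest range relative to its level, its highest residual level in TPM being 1.60 times its lowest, against 4.36 times for *Olfml3*, the next narrowest.

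**Figure D2:**
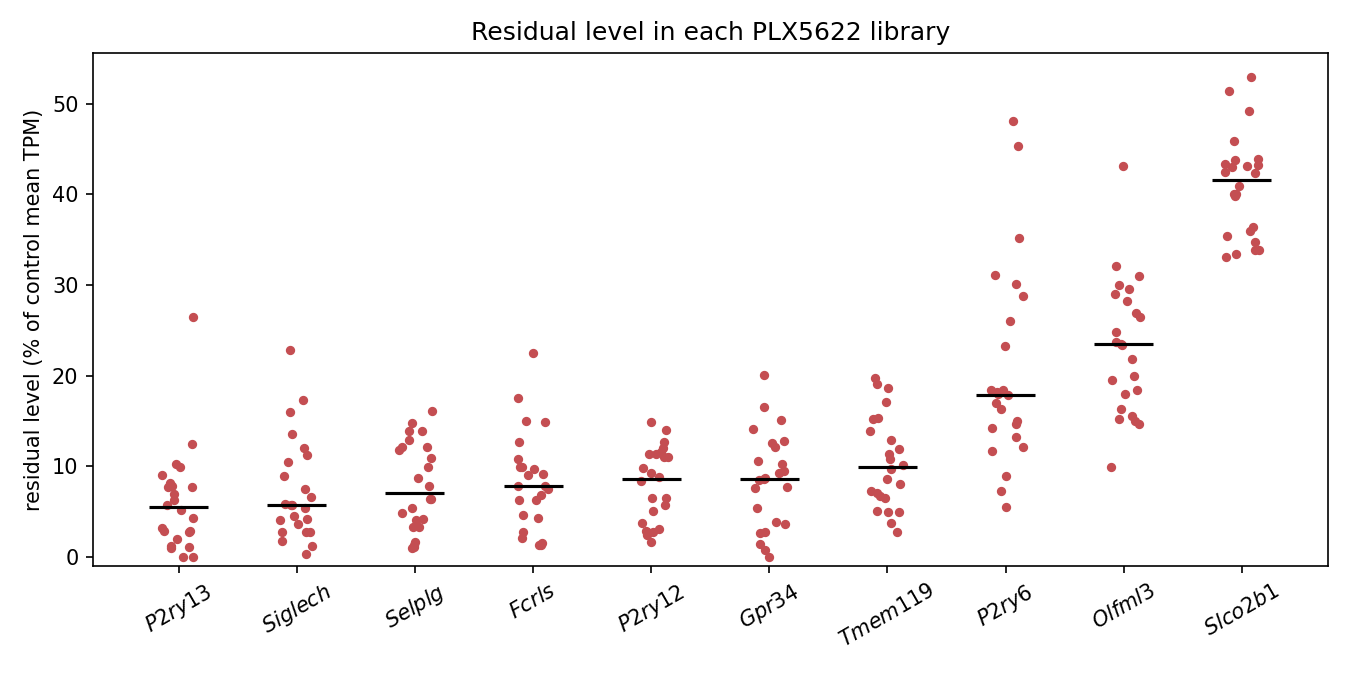
Residual level of each gene as percent of the control mean TPM on the vertical axis, with 1 point per PLX5622 library (n = 24) and a line at the median. Genes are ordered by median, from *P2ry13* at 5.49% to *Slco2b1* at 41.6%.

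PLX5622 libraries differed in how much of the whole set was left. The median residual level over the 10 genes ranged from 2.18% in ZT2 replicate 3 to 18.3% in ZT6 replicate 2, with a median over libraries of 9.04%, and it was under 10% in 14 of 24 libraries. The 10 genes tended to be high or low together: over the 24 PLX5622 libraries the Spearman correlation between pairs of members had a median of 0.71 (45 pairs, from -0.07 to 0.90), and over the 23 control libraries one of 0.42 (from -0.19 to 0.81). *Selplg* had the highest median correlation with the other members in PLX5622 libraries (0.87), and *Slco2b1* the lowest (0.19). These are descriptions, and libraries also share depth and time of day. In ZT10, replicates 3 and 4 of the same group had median residual levels of 2.42% and 17.4%.

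After the mean of each time was removed, the standard deviation of log2(TPM + 1) was larger in PLX5622 than in control mice for 8 of the 10 genes, against 49.6% of all genes tested. *Selplg* had 0.641 in PLX5622 mice and 0.143 in control mice, and *P2ry12* had 0.633 and 0.190. *P2ry6* (0.185 and 0.217) and *Slco2b1* (0.150 and 0.165) were the exceptions. The median log2 ratio of the standard deviations was 1.33 for the 10 genes and -0.00 for all genes tested. At TPM levels near 1 or below, this scale compresses differences, which touches *P2ry6* and *P2ry13* most. Counts were also low in PLX5622 libraries, from 2 to 84 for *Siglech* and from 5 to 114 for *Selplg*. The part of low counts in this spread was not tested. Most of all genes tested were not called lower, and no comparison with other genes that fell was made. The larger spread is therefore not shown to be particular to the 10.

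The genes whose pattern over the 24 PLX5622 libraries was most like the mean of the 10 were *C1qb* (Spearman 0.94, Pearson 0.93), *C1qa* (0.94 and 0.95), *Cx3cr1* (0.94 and 0.96), *Ly86* (0.94 and 0.95) and *C1qc* (0.93 and 0.93). These encode complement chains, the fractalkine receptor and a partner of a Toll-like receptor relative. Over the 23 control libraries they were *Cx3cr1* (Spearman 0.88, Pearson 0.87), *Mpeg1* (0.88 and 0.85), *Znrf3* (0.87 and 0.87), *Ctss* (0.87 and 0.88) and *Tgfbr1* (0.87 and 0.88).

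Other microglial genes fell beside the 10. Of 20 such genes, all 20 were called lower (376 of 14580 genes in all), with a median log2 fold change of -2.79, against -2.75 for the 10 and 0.03 for all genes tested. Of these 20, 5 had a mean under 1 TPM in PLX5622 mice and passed the minimum through the control mice, and with no minimum level 20 of 20 were called lower (586 of 33748 genes). Their summed level ranged from 657 to 959 TPM (median 793) in control libraries and from 33.0 to 155 TPM (median 88.1) in PLX5622 libraries. On the log2(TPM + 1) scale, which favours abundant genes, *C1qa* (-3.74, standard error 0.201) and *C1qb* (-3.63, standard error 0.191) changed most. Their median residual levels were 7.27% and 8.62%, while the lowest of the list was that of *Itgam*, an integrin chain (6.67%). *Tgfbr1*, a receptor for the cytokine TGF-beta (-1.10, standard error 0.061), and *Sall1*, a transcription factor (-0.53, standard error 0.067), changed least, and *Sall1* kept a median residual level of 61.9%. The residual level of the 10 surface genes was below that of this list in 19 of 24 libraries, comparing the medians of each, but over the 24 libraries these medians had medians of 9.04% and 8.998%.

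Among 16 other genes of purinergic signaling, 13 were tested and 1 was called lower (376 of 14580 genes in all), *P2rx7*, an ATP-gated channel (log2 fold change -0.37, standard error 0.071, adjusted p = 2.62e-04). This count was 2 without PLX5622 ZT10 replicate 2, control ZT10 replicate 3 or control ZT14 replicate 2, each left out alone, 2 of 16 with no minimum level (586 of 33748 genes), 2 of 13 with median-of-ratios scaling (547 of 14580), 5 of 15 with edgeR (912 of 18274), 5 of 15 with DESeq2 (1000 of 21398) and 0 of 6 at a minimum of 5 TPM (208 of 10550). Of the 3 genes below the minimum, *Adora3*, an adenosine receptor that overlaps *Tmigd3* on the same strand, had medians of 0.691 TPM in control and 0.0636 TPM in PLX5622 libraries, 20 of 24 of which lay below all control libraries. The 12 others were not called by limma on log2(TPM + 1) without further scaling, among them *Adora2a*, an adenosine receptor (0.30, adjusted p = 0.506), and *Entpd1*, which degrades ATP and ADP (-0.27, adjusted p = 0.425). The tables differed most for *Entpd1* among these 12: its counts ran from 237 to 438 (median 326) in control and from 165 to 266 (median 205) in PLX5622 libraries, and it was called lower with edgeR (log2 fold change -0.81, adjusted p = 2.24e-21) and DESeq2 (-0.82, adjusted p = 1.22e-64). The most abundant was the G protein subunit *Gnai2*, with medians of 171 TPM in control libraries and 160 TPM in PLX5622 libraries (-0.11, adjusted p = 0.0896). *Gnai2* was called lower with median-of-ratios scaling of TPM (-0.14, adjusted p = 0.0338), edgeR (-0.13, adjusted p = 0.01999) and DESeq2 (-0.13, adjusted p = 0.0125), and *Adora1*, an adenosine receptor (-0.09, adjusted p = 0.357 with limma), with edgeR (-0.13, adjusted p = 0.0294) and DESeq2 (-0.13, adjusted p = 0.0214). Of 19 relatives and binding partners of the set, 7 were tested, and *Cd33*, a relative of *Siglech*, was called lower (median 3.68 TPM in control and 0.322 TPM in PLX5622 libraries, log2 fold change -1.71, standard error 0.079). It passed the minimum through the control mice. Of the 12 not tested, *Siglece*, another relative of *Siglech*, had medians of 0.607 TPM in control and 0.0394 TPM in PLX5622 libraries, with 23 of 24 below all control libraries, and *Fcrl1* medians of 0.325 and 0 TPM, with 20 of 24 below. With no minimum level 4 of 18 were called lower (586 of 33748 genes), *Cd33*, *Siglece*, *Siglecf* and *Fcrl1*. *Slco3a1* and *Slco1a4*, relatives of *Slco2b1*, were not called (0.10 and 0.08), and *Slco1a4* was the most abundant of that list.

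Markers of border-associated macrophages, which also depend on CSF1R, were examined beside the 10 genes. Of 8 such markers, 3 reached the minimum level, and all 3 were called lower (376 of 14580 genes in all): *Pf4* (log2 fold change -2.11, standard error 0.115), *Stab1* (-1.60, standard error 0.089) and *Cbr2* (-1.10, standard error 0.147). All 3 passed that minimum only through the control mice, their means in PLX5622 mice being 0.446, 0.995 and 0.550 TPM, so the minimum had a part in this count. With no minimum level, 8 of 8 were called lower (586 of 33748 genes). Their summed level was 12.3 to 25.3 TPM (median 15.96) in control libraries and 0.828 to 4.30 TPM (median 2.33) in PLX5622 libraries, *Stab1* being the most abundant. None of the 8 was at 0 in every library. Of 8 choroid plexus markers 3 were called higher, against 127 of 14580 genes (0.871%): *Ttr* (0.80, adjusted p = 0.0452), *Enpp2* (0.33) and *Kl* (0.40). The other 5 were not called, and the count of 3 lay between 1 and 4 when any 1 library was left out. It was 2 with edgeR or DESeq2 (*Enpp2* and *Prlr*), and 1 with no minimum level, median-of-ratios scaling or ZT as a factor (*Enpp2*). The summed level of the 8 was 158 to 1365 TPM (median 614) in control libraries and 251 to 1467 TPM (median 960) in PLX5622 libraries, with *Ttr* the most abundant. The part of either list in the levels of the 10 genes was not tested.

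Markers of endothelial cells (8 tested), mural cells (7), neurons (8) and blood leukocytes (2 of 10 tested, *S100a8* and *S100a9*) gave 0 calls with limma at the minimum of 1 TPM without further scaling (1, 1, 1 and 0 at an unadjusted p under 0.05). Among neuronal markers *Nefl*, a neurofilament chain, was called lower with limma after median-of-ratios scaling, with edgeR and with DESeq2. Among leukocyte markers *Ccr2*, a chemokine receptor of monocytes that was below the minimum, was called lower with limma with no minimum level, with edgeR and with DESeq2 (medians of 0.166 TPM in control and 0.0602 TPM in PLX5622 libraries, 11 of 24 below all control libraries). Of 8 astrocyte markers *Gfap* was called higher (0.56, standard error 0.087), against 127 of 14580 genes in all (0.871%). Of 8 oligodendrocyte markers *Cldn11* was called higher (0.24, standard error 0.069), though not with no minimum level. At an unadjusted p under 0.05 (limma), in either direction, there were 4 of 8 in each of these 2 lists.

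Time of day was examined in each treatment because the study sampled both treatments across the day. In control mice 8 of the 10 genes had their lowest mean at ZT18, and their highest means fell at ZT6, ZT10, ZT14 or ZT22. In PLX5622 mice 7 of the 10 had their lowest mean at ZT2, and 6 had their highest at ZT18. The share of all genes with these times is not given here. Since the 10 genes tended to be high or low together, these counts are descriptions and not separate observations of a daily pattern. At ZT2 the median residual level over the 10 was 2.76% and 2.18% in replicates 2 and 3, and 7.31% and 9.42% in replicates 1 and 4. None of the 10 cycled at an adjusted p under 0.05 in control mice, where JTK_CYCLE called 11 of 14580 genes (0.0754%), or in PLX5622 mice, where it called 89 of 14580 (0.61%). These counts come from a one-sided tail, adopted after the calls with a doubled tail, 2 and 38 genes, had been seen. With 1 library left out the counts of all genes ran from 0 to 18 in control and from 38 to 114 in PLX5622 mice. They were 36 and 135 with limma's cosine and sine, and 270 and 405 with edgeR.

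*P2ry12* in control mice was 34.7 ± 1.86 TPM at ZT18 and 46.3 ± 9.48 TPM at ZT14 (mean ± SD, n = 4 and n = 3), and the groups overlapped. In PLX5622 mice it was 2.03 ± 1.32 TPM at ZT2 and 4.36 ± 1.12 TPM at ZT18 (n = 4 each), and these overlapped too. Each JTK_CYCLE p given as unadjusted was corrected over the 6 phases (Bonferroni) but not over genes. *Gpr34* had the smallest such p of the 10 in control mice (0.146, JTK_CYCLE exact test), with 9.87 ± 1.37 TPM at ZT18 and 12.4 ± 1.29 TPM at ZT10. *P2ry6* had the smallest in PLX5622 mice (0.0574, JTK_CYCLE exact test), with 0.237 ± 0.0827 TPM at ZT14 and 0.549 ± 0.252 TPM at ZT22. Without the PLX5622 library ZT10 replicate 4, the highest of its group for *P2ry6*, this p was 0.00774 (JTK_CYCLE exact test) and the adjusted p 0.260, still not a call. It was also under 0.05 without ZT2 replicate 2 (0.0182), ZT6 replicate 1 (0.0438) or ZT22 replicate 4 (0.0248, JTK_CYCLE exact test for each). With 1 library left out the same held for *Fcrls* in PLX5622 mice without ZT6 replicate 2 (0.0248) and in control mice without ZT6 replicate 1 (0.0335), and for *Gpr34* in control mice without ZT22 replicate 2 (0.0402), all by the JTK_CYCLE exact test and none a call (adjusted p of 0.402, 0.537 and 0.531). The times with the highest and the lowest mean did not overlap in *Selplg* and *Olfml3* in control mice, against 4433 of 14580 genes (30.4%), and in *Fcrls* in PLX5622 mice, against 3983 of 14580 (27.3%). *Selplg* was 23.1 ± 2.73 TPM at ZT18 and 31.0 ± 4.43 TPM at ZT14 in control mice.

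**Figure D3:**
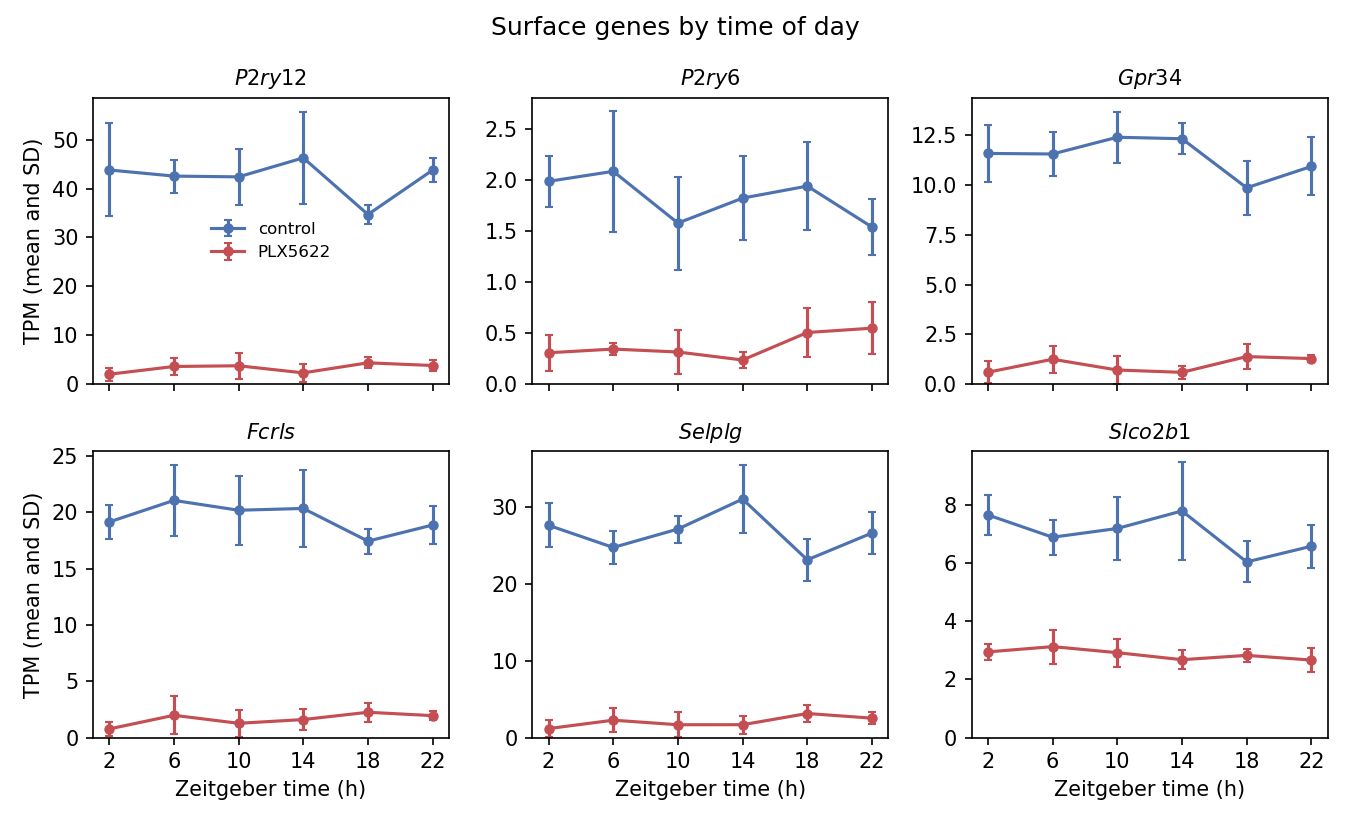
Mean TPM with SD on the vertical axis against Zeitgeber time in hours, for 6 genes in control and PLX5622 mice (n = 4 per point, n = 3 for control mice at ZT14). In each panel the PLX5622 line runs below the control line, as between 2.03 and 4.36 TPM for *P2ry12*.

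With JTK_CYCLE on all libraries 0 of the 10 reached a p under 0.05 before adjustment over genes in either treatment. Of all 14580 genes 1243 did in control and 1615 in PLX5622 mice. This p was corrected over phases, while the unadjusted p of limma and edgeR had no such correction. With limma, cosine and sine of ZT gave 0 calls and 0 at an unadjusted p under 0.05 in both treatments (1565 and 1873 of all genes), and ZT as a factor gave 0 calls and 2 and 0 at that level (1762 and 2002). With edgeR on the counts 0 were called and 0 and 1 reached it (2974 of 17443 and 3055 of 17664 genes). No difference in rhythm between treatments was called for the 10 by limma's interaction test (0 called, 0 at an unadjusted p under 0.05; with ZT as a factor 0 and 1, against 485 of all genes at that level, with edgeR 0 and 0), where 0 of 14580 genes (0%) were called and 669 reached that level unadjusted. The smallest interaction p of the 10 was 0.117, for *Gpr34* (limma, 47 libraries). The median residual level of the 10 genes was 5.42% ± 3.52 at ZT2, 10.99% ± 6.25 at ZT6, 8.21% ± 7.07 at ZT10, 7.18% ± 3.84 at ZT14, 12.6% ± 3.87 at ZT18 and 10.7% ± 1.79 at ZT22 (mean ± SD, n = 4 each). These differences were not tested.

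To show the sequences around gene starts, promoter windows of 300 bases from RefSeq (GRCm38.p6) were used for 6 of the 10 genes. They were *P2ry12*, *P2ry13*, *Fcrls*, *Siglech*, *Olfml3* and *Slco2b1*, the last with 3 starts. Apart from the window of *P2ry12*, each reaches into its gene as annotated in GENCODE M21. *P2ry6*, *Gpr34*, *Tmem119* and *Selplg* had no entry in the promoter table used here. GAGGAA, the core bound by PU.1, a factor that microglia require, was found on either strand in 6 of the 8 windows of these genes (4 of the 6 genes, *Slco2b1* with all 3 of its windows), and in 28.3% of all 32851 promoter windows. CACGTG, the E-box bound by clock factors, was found in 2 of the 8 windows, those of *P2ry12* and *Siglech*, and in 7.15% of all windows. TGACTCA, the AP-1 site, was found in 1 of the 8, of *Slco2b1*, and in 5.20% of all windows. These are matches of letters only. Capitals mark GAGGAA (or its reverse complement TTCCTC) and CACGTG, and the motifs do not overlap each other. *P2ry12* is at chr3:59262936-59263235, *P2ry13* at chr3:59210833-59211132 and *Fcrls* at chr3:87263475-87263774, all on the minus strand, and *Siglech* is at chr7:55767934-55768233 on the plus strand. These 4 are shown because they had the lowest residual levels of the 6. Most of the *Fcrls* window, its marked GAGGAA included, lies within the annotated gene, which ends at base 87263738. In *Siglech* the marked TTCCTC lies just past the annotated gene start at base 55768178.
P2ry12: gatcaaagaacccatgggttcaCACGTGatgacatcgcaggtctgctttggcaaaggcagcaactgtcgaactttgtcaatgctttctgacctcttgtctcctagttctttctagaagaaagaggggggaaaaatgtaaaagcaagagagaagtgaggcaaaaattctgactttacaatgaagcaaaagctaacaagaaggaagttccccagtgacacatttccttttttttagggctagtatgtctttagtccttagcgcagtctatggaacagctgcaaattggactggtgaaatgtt
P2ry13: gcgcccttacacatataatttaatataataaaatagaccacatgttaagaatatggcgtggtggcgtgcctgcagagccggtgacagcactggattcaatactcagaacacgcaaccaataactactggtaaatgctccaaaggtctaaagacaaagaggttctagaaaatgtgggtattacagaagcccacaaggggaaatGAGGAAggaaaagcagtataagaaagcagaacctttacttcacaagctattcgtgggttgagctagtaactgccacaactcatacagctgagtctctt
Fcrls: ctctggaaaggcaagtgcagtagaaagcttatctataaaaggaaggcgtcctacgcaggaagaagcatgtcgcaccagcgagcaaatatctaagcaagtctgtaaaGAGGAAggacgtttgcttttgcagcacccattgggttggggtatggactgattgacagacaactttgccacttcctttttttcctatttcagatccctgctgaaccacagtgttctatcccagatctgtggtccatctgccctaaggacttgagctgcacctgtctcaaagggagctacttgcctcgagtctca
Siglech: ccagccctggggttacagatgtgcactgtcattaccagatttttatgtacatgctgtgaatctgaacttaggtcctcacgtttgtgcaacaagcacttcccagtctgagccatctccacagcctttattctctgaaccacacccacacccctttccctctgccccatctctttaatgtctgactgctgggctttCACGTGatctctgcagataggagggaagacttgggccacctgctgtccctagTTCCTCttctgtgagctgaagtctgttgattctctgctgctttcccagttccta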

How the data were processed

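Cortical RNA of 47 mice was analysed. The authors deposited TPM values, computed with Salmon after mapping with STAR to GRCm38, normalized within each library. The second table the authors deposited is named for FPKM but holds whole-number counts per gene without normalization; the submitters' processing notes name STAR, featureCounts, edgeR, limma and mm10. Values entered as log2(TPM + 1), and 14580 genes averaging 1 TPM or more were kept. For treatment, limma 3.58.1 (R 4.3.3) was fitted with cosine and sine terms of ZT at 24 h, and rhythm differences by their interaction with treatment. Cycling was tested by JTK_CYCLE, coded here with 6 phases and a Bonferroni correction over them within each gene, also in the p called unadjusted. The Benjamini-Hochberg adjustment ran over all genes tested.

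The first form of JTK_CYCLE doubled the tail of each phase. It was changed to a one-sided tail per phase after its calls on these data, and calls from an earlier analysis of them, had been seen, because a doubled tail together with a correction over phases in both directions is conservative. The doubled form is given among the alternatives.

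Alternatives were edgeR 4.0.16 and DESeq2 1.42.0 on the counts, other filters, a pseudocount of 0.1, median-of-ratios scaling, ZT as a factor, a replicate block, CPM and each library left out. Scripts were tested on simulated data. Python 3.11.15 was used for tables and figures. Genes named are the 10 members, genes that overlap them, for each list the most abundant and the 2 lowest and 2 highest by fold change (a subset of these is printed), and the 5 most alike per treatment. Other genes called in a list are also named, *Itgam*, *Adora1*, *Adora3*, *Siglece*, *Siglecf*, *Fcrl1*, *Prlr*, *Nefl* and *Ccr2* were chosen after their values were seen, and some single values are not reported here. The members and lists were chosen with earlier results of these data known. Identifiers were found in GENCODE M21 for 99.68% of the TPM table and 99.77% of the count table. Sequencing metrics were not used here.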

Additional observations from a re-analysis of the deposited data

Results flagged for a closer look

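In 110 groups of 4 libraries (10 genes in 11 groups), 9 values stood apart from the other 3 of their group. The rule was Dixon's gap test on TPM, the distance to the nearest value relative to the range of the group. For independent, normally distributed values it flags about 1 in 20 groups. The 10 genes share libraries and tended to move together, so the number flagged cannot be set against that share. *P2ry6* was above the others in PLX5622 ZT10 replicate 4, with 0.641 TPM against 0.163 to 0.242 TPM. *P2ry6* was above the others in control ZT10 replicate 2, with 2.26 TPM against 1.33 to 1.39 TPM. *Tmem119* was above the others in control ZT2 replicate 4, with 23.2 TPM against 17.3 to 18.3 TPM. *Siglech* was below the others in control ZT2 replicate 1, with 17.9 TPM against 19.3 to 19.5 TPM. *Siglech* was below the others in control ZT6 replicate 3, with 15.01 TPM against 18.4 to 18.9 TPM. *Selplg* was above the others in PLX5622 ZT14 replicate 1, with 3.43 TPM against 0.884 to 1.29 TPM. *Olfml3* was below the others in PLX5622 ZT14 replicate 2, with 1.24 TPM against 1.94 to 2.07 TPM. *Olfml3* was above the others in control ZT2 replicate 4, with 7.995 TPM against 6.57 to 6.78 TPM. *Olfml3* was above the others in control ZT18 replicate 2, with 7.06 TPM against 5.05 to 5.25 TPM.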

How the results depend on the processing

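The 10 genes were called lower under every alternative, except that at a mean of at least 5 TPM only 6 of them reached the minimum and all 6 were called, since fewer genes were tested. Leaving out any 1 of the 47 libraries gave 10 calls. No log2 fold change of the 10 changed sign or lost its call, but sizes moved: over the alternatives without left-out libraries *P2ry13* ran from -2.61 to -4.14, *P2ry6* from -1.03 to -2.16, *Gpr34* from -2.71 to -3.74, *Siglech* from -3.15 to -4.04, *Fcrls* from -3.06 to -3.79 and *Selplg* from -3.29 to -3.95, and no median residual level moved beyond the spread between libraries. The order of residual levels from CPM exchanged *Selplg* and *Fcrls*, and the same number of neighbours, 2, differed beyond their spread. The count of all genes called lower, 376, was 586 with no filter, 208 at 5 TPM, 912 with edgeR and 1000 with DESeq2, and 401 with the replicate block. With the block 10 of the 10 genes were called lower, and 0 cycled or differed in rhythm. Replicate numbers were not taken to pair the libraries, since the labels name no litter, batch or day for them and only 7 of 23 same-numbered pairs had a correlation of deviations from group means above 0.1 (-0.09 to 0.20). As a hint from the data, 11 of 23 control libraries correlated best with their own number, among them all 4 at ZT2.

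None of the 10 genes cycled under the alternative filters, limma, edgeR, the doubled tail or with 1 library left out, or differed in rhythm under those run for it (filters, pseudocount, scaling, edgeR, block, ZT as a factor, 1 library left out). The number of all genes cycling moved more. In control mice it was 11, and it was 0 with no filter, 36 with limma's cosine and sine, 68 with the same and the replicate block, 55 with ZT as a factor, 270 with edgeR, 2 with the doubled tail (the form used first; the one-sided form was adopted, and this one listed as an alternative, after the data were seen) and 0 to 18 with 1 library left out, 0 without ZT10 replicate 4. In PLX5622 mice it was 89, and it was 43, 135, 153, 150, 405 and 38 in the same order, and 38 to 114 with 1 library left out. The cause was not tested. Depth limits *P2ry6*, *P2ry13*, *Gpr34*, *Siglech*, *Fcrls* and *Selplg*, which fell to between 0 and 5 counts in some PLX5622 libraries.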
